A study of Capra hircus with 12 samples.

Results

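The small leucine-rich proteoglycan genes were followed in cultured goat temporomandibular joint cells. The family members were taken by gene symbol from the count tables, which held all 10 of those sought (DCN, BGN, LUM, FMOD, PRELP, OGN, ASPN, EPYC, CHAD and OMD) among 28910 genes. RNA-seq counts were used from 12 libraries, 3 for each combination of layer and treatment, with cells of the superficial layer called SLC and cells of the middle layer called MLC. All cells came from female goats aged 6 to 9 months and were used at passages 3 to 5, and all groups received 10 ng IL-1β for 1 h, so no untreated cells enter any comparison. Libraries labelled IL-1β are set against libraries labelled IL-1β + LOXL2, for which an adenovirus carrying LOXL2 (lysyl oxidase like 2, an enzyme that crosslinks collagen) was added overnight before IL-1β. Whether the IL-1β libraries came from cells exposed to an empty virus is not stated in the culture methods, although an empty adenovirus is named for the flow cytometry groups, so in these libraries LOXL2 and the virus cannot be told apart. The labels do not state whether the 3 libraries of a group came from separate animals or cultures, and p-values therefore measure only the spread between libraries, which may be technical.

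Small leucine-rich proteoglycans are secreted proteins built around a curved stack of leucine-rich repeats, with which most of them bind collagen and set the spacing and diameter of its fibrils. Decorin and biglycan (class I) carry chondroitin or dermatan sulfate chains, fibromodulin, lumican and osteomodulin (class II) can carry keratan sulfate, and asporin and PRELP usually carry no such chain. Osteoglycin and epiphycan form class III, and chondroadherin, which binds collagen and integrins, belongs to class IV. In cartilage they lie on the collagen network and are cleaved in osteoarthritis, and freed biglycan and decorin can act as danger signals at Toll-like receptors.

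Library totals ranged from 14158607 to 28931652 counts. The SLC libraries labelled IL-1β + LOXL2 were the most uneven group. The median absolute log2 difference of a library from the other two of its group was 0.41, 0.35 and 0.12 for the first, the second and the third of them, 0.25, 0.12 and 0.20 for those of MLC, and 0.10 to 0.14 for the IL-1β libraries of both layers. The chi-square over its degrees of freedom was 159 and 58.1 for the SLC pairs that hold the first library and 29.2 for the other pair. Counts on the goat LOXL2 gene did not rise with the treatment label in either layer. They averaged 11708 ± 165 normalized counts (SD, n = 3) in SLC libraries labelled IL-1β and 9684 ± 999 (SD, n = 3) in those labelled IL-1β + LOXL2, without overlap, and 15258 ± 1003 and 14600 ± 731 (SD, n = 3) in MLC, with overlap. Directions for LOXL2 treatment below rest on the labels alone. As a check of the layers, the 7 chondrocyte marker genes found in the tables summed to 50.5 to 86.2 CPM (counts scaled to a common library size) in SLC and 442 to 589 CPM in MLC. The cartilage collagens COL2A1 and COL9A1 were at 0 in the 3 SLC IL-1β libraries and averaged 16.6 and 14.0 CPM in the MLC IL-1β libraries. PRG4, the lubricant gene of the joint surface, averaged 4.39 CPM in SLC and 5.97 CPM in MLC with IL-1β, and tenomodulin (TNMD) was at 0 in every library. The other markers listed for the superficial fibrous layer differed in both directions under IL-1β, with THY1 averaging 435 CPM in SLC and 288 CPM in MLC, and POSTN 95.0 and 228 CPM.

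The family split into abundant and scarce genes. DCN, BGN, LUM, FMOD and PRELP each had at least 10538 reads in every library, ASPN and OGN had 644 to 4024 reads, and OMD and CHAD had at most 67 reads. All 10 genes together took 0.771% ± 0.00620 of all counts in SLC with IL-1β and 1.04% ± 0.034 in MLC with IL-1β (SD, n = 3 each). EPYC was close to absent. It had 0 reads in all 6 SLC libraries, which at a floor of 3 counts allows at most 0.104 to 0.160 CPM, and no MLC library had more than 2 reads. EPYC was not tested in any comparison, so 9 of the 10 members were. Longer transcripts collect more reads, and transcript lengths were not used here, so counts are compared between libraries and not between genes.

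The layers were compared first, MLC against SLC, within each treatment. Cells of the layers were isolated by different steps. Layer and any difference in how cells or libraries were prepared cannot be told apart. Under IL-1β, 5 of the 9 tested members rose in MLC and none fell, against a background of 25.6% of 14534 genes that passed the adjusted threshold of 0.05 in either direction, 14.2% as higher and 11.4% as lower in MLC. The median log2 fold change of the 9 members was 0.77, and that of all tested genes was -0.0097. In RNA from whole cultures, a larger share of cells that express a gene and more RNA of it per cell cannot be told apart. Chondrocyte markers differed between the layers as given above, and the summed level of 5 smooth muscle and pericyte markers was 1442 to 1877 CPM in SLC and 876 to 979 CPM in MLC under IL-1β. ACTA2 made up most of this sum (1636 and 864 CPM on average), and the others were not all lower in MLC, CNN1 averaging 44.5 and 46.3 CPM and DES 0.112 and 0.313 CPM. Their part in the differences of this family was not tested. Endothelial markers summed to at most 4.29 CPM and leukocyte markers to at most 14.4 CPM in any library.

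Decorin (DCN), which binds collagen fibrils and sequesters TGF-β, had normalized counts of 25742, 25420 and 26501 in the SLC IL-1β libraries and 49407, 58074 and 49753 in the MLC IL-1β libraries. With LOXL2 the values were 24733, 29055 and 27711 in SLC and 57683, 52614 and 52167 in MLC. Every MLC library was above every SLC library. In edgeR's quasi-likelihood test the log2 fold change of MLC over SLC was 1.03 (standard error, SE, 0.098, adjusted p = 9.96e-06) under IL-1β and 0.99 (SE 0.098, adjusted p = 1.23e-05) with LOXL2. Within a layer the 2 treatment groups overlapped, with the mean slightly higher with LOXL2 in each.

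Lumican (LUM), the class II relative that regulates fibril thickness, followed DCN closely. Its SLC libraries held 14907, 15261 and 15146 normalized counts with IL-1β and 14759, 14610 and 14709 with LOXL2. The MLC libraries held 28087, 32813 and 28548 with IL-1β and 33058, 29378 and 29058 with LOXL2. LUM rose in MLC by a log2 fold change of 1.00 (SE 0.088, adjusted p = 5.81e-06) under IL-1β and 1.05 (SE 0.088, adjusted p = 3.26e-06) with LOXL2. The second MLC IL-1β library and the first MLC library labelled IL-1β + LOXL2 were the highest of their groups for both LUM and DCN.

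Fibromodulin (FMOD), which shares a collagen binding region with lumican and also carries keratan sulfate, rose less. Its normalized counts ranged from 41428 to 44891 over the 6 SLC libraries and from 55355 to 62251 over the 6 MLC libraries, without overlap. The log2 fold change was 0.43 (SE 0.077, adjusted p = 0.00129) under IL-1β and 0.51 (SE 0.077, adjusted p = 0.000338) with LOXL2. These calls, like those of DCN, LUM and OGN, held in all 12 fits that each left out 1 library.

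Osteoglycin (OGN), a class III member also known as mimecan, had 627, 552 and 678 normalized counts in SLC and 1264, 1135 and 1186 in MLC with IL-1β. With LOXL2 it had 825, 614 and 662 in SLC and 1442, 1076 and 1222 in MLC. The lowest MLC library lay above the highest SLC library. The log2 fold change was 0.97 (SE 0.13, adjusted p = 0.000193) under IL-1β and 0.83 (SE 0.13, adjusted p = 0.000520) with LOXL2.

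Asporin (ASPN), a class I member that binds collagen and TGF-β, passed between the layers in the IL-1β libraries, where SLC held 2323, 1964 and 1863 normalized counts and MLC 3410, 3434 and 3549. The log2 fold change was 0.77 (SE 0.21, adjusted p = 0.0184), and the adjusted p rose to 0.0649 and 0.0716 without the second or the third SLC IL-1β library and to 0.0558 without the third MLC IL-1β library. With LOXL2 the layers overlapped, with 3131, 1520 and 1902 in SLC and 3884, 2860 and 2894 in MLC. The fold change there was 0.55 (SE 0.21, adjusted p = 0.0701), and with the replicate number as a block it was 0.58 (adjusted p = 0.0156). Without the first SLC library labelled IL-1β + LOXL2 it was 0.90 (adjusted p = 0.000139), in a fit that called 6812 of 14718 genes.

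Biglycan (BGN), the closest relative of decorin, went the other way. Its SLC libraries held 41264, 39207 and 39753 normalized counts with IL-1β and 44816, 58825 and 49985 with LOXL2, and its MLC libraries 33141, 33227 and 32309 with IL-1β and 35907, 39972 and 40772 with LOXL2. Within each treatment every MLC library was below every SLC library. Under IL-1β the log2 fold change of MLC over SLC was -0.27 (SE 0.11, adjusted p = 0.0821), which did not pass. It passed with DESeq2's Wald test (adjusted p = 0.0324). It also passed in a fit on the 6 IL-1β libraries (adjusted p = 0.00237), which called 6548 of 13965 genes. With LOXL2, BGN was lower in MLC by a log2 fold change of -0.40 (SE 0.11, adjusted p = 0.0127). That call was lost without the first MLC library labelled IL-1β + LOXL2 (adjusted p = 0.0539), and in a fit on the 6 libraries of that treatment (-0.38, adjusted p = 0.111).

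In the libraries labelled IL-1β + LOXL2, 28.9% of 14534 genes passed between the layers, 14.6% higher in MLC and 14.3% lower, and 34.9% did not overlap. Of the 9 tested members, 5 were called higher (DCN, LUM, FMOD, OGN and PRELP) and BGN was called lower. The IL-1β and the IL-1β + LOXL2 comparisons of the layers use different libraries but share one estimate of the spread. PRELP, which binds heparin through a basic stretch at its start and links collagen to basement membranes, had a log2 fold change of 0.10 (SE 0.13, adjusted p = 0.617) under IL-1β. With LOXL2 it was 0.37 (SE 0.13, adjusted p = 0.0474), a call that held in 2 of 12 fits with 1 library left out (adjusted p from 0.00287 to 0.147) and not in a fit on the 6 libraries of that treatment (adjusted p = 0.151).

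The scarce members gave less precise values. Osteomodulin (OMD), a keratan sulfate proteoglycan best known from bone, had 25.3, 32.6 and 30.6 normalized counts in SLC and 87.9, 53.6 and 63.1 in MLC with IL-1β. These groups did not overlap, which was so for 55.1% of all tested genes in this comparison, and the log2 fold change of 1.22 (SE 0.54, adjusted p = 0.123) did not pass. In a fit on the 6 IL-1β libraries, which called 6548 of 13965 genes, it was 1.21 (SE 0.24, adjusted p = 0.000749). Chondroadherin (CHAD) had group means between 26.1 and 30.2 normalized counts, and its layer difference under IL-1β was a log2 fold change of -0.0021 with an SE of 0.38. A layer difference in CHAD of the size seen for DCN would be less than 3 SEs at this depth.

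**Figure D1:**
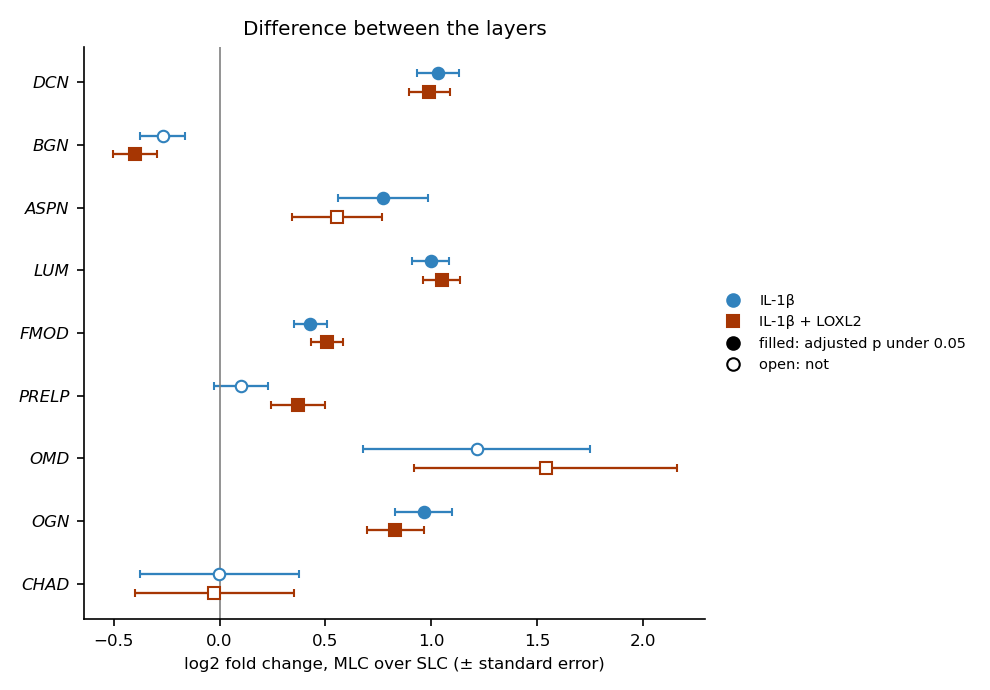
Log2 fold change of MLC over SLC (x axis, ± standard error from edgeR) for the 9 tested family genes (y axis), in the IL-1β libraries (circles) and the libraries labelled IL-1β + LOXL2 (squares), filled where the adjusted p is under 0.05. DCN, LUM and OGN lie between 0.83 and 1.05 in both treatments, FMOD lies at 0.43 and 0.51, and BGN lies below 0.

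The members moved unequally, and this was visible as ratios of reads within a library, which do not depend on how libraries are scaled. The ratio of BGN to DCN reads was 1.55 ± 0.052 in SLC and 0.631 ± 0.052 in MLC with IL-1β (SD, n = 3 each). With LOXL2 the ratio was 1.88 ± 0.13 in SLC and 0.721 ± 0.086 in MLC. It was therefore 2.45-fold and 2.61-fold lower in MLC, with no overlap in either treatment (two-sided exact permutation test, p = 0.1 each, the smallest that 3 against 3 libraries allow). The ratio of LUM to DCN was nearly constant by contrast, at 0.584 ± 0.015 and 0.543 ± 0.048 in SLC with IL-1β and with LOXL2, and 0.569 ± 0.0044 and 0.563 ± 0.0089 in MLC with IL-1β and with LOXL2. The LUM ratio overlapped between all groups compared, as did those of OGN and ASPN. The ratio of FMOD to DCN was 1.65 ± 0.035 in SLC and 1.09 ± 0.078 in MLC with IL-1β, although FMOD itself was higher in MLC, and these groups did not overlap. The ratio of PRELP to DCN was 0.575 ± 0.044 and 0.305 ± 0.063 in the same libraries, and it did not overlap between the layers in either treatment (exact permutation p = 0.1 each).

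**Figure D2:**
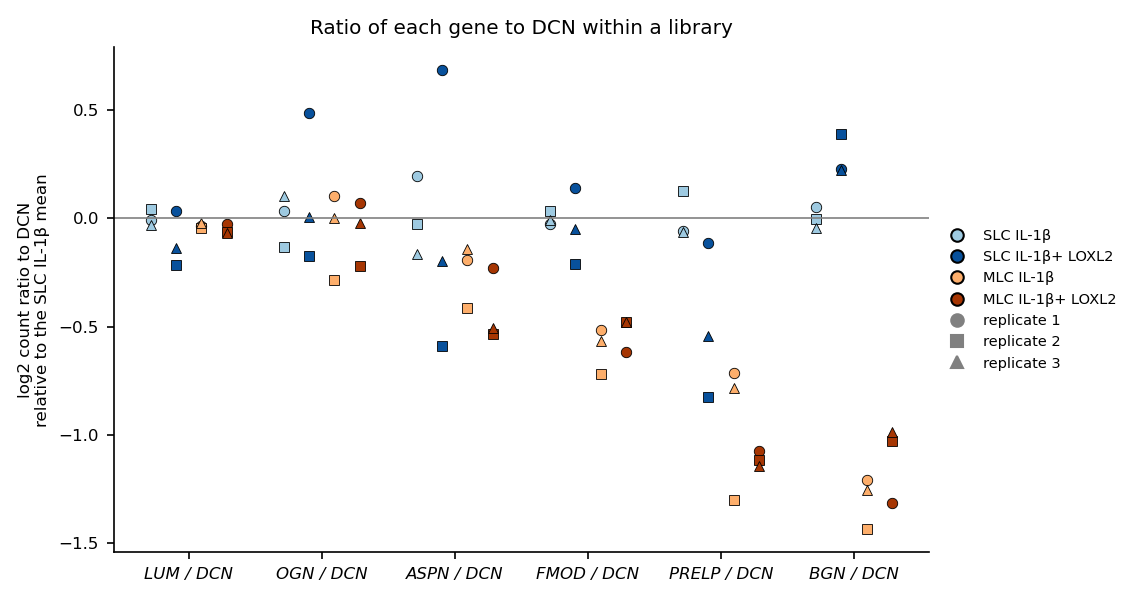
Log2 ratio of reads of 6 family genes to DCN reads in each library (y axis), set to 0 at the mean of the SLC IL-1β libraries, with colors for the group and symbols for the replicate number. LUM stays near 0 in all 12 libraries, and BGN and PRELP lie below -0.5 in every MLC library.

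DCN and LUM were also each other's nearest gene by expression pattern. Over the 12 libraries, the root mean square difference between their mean-centred log2 CPM values was 0.067, the smallest for either gene among 9903 genes with a mean log2 CPM of at least 3. The next nearest to DCN were COL7A1 at 0.086 and PROCR at 0.087, and the next nearest to LUM were CTSC at 0.091 and LRP5 at 0.099. OGN ranked 67 from DCN and 44 from LUM, whereas BGN ranked 7486 from DCN and 7727 from LUM. OMD, the member with the widest spread between group means, had no near neighbour, the closest being KNL1 at 0.38, PRR11 at 0.42 and SMC2 at 0.46. OMD had from 1 to 67 reads per library, below the level required of the genes searched. Counting error therefore enters both its spread and its distances. The 12 libraries fall into 2 layers, so these distances largely rank genes by their layer difference.

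The genome places most of the family in 3 clusters on the goat assembly ARS1.2, with coordinates from its RefSeq annotation, in which all 10 are protein-coding genes. On chromosome 5, EPYC (20660036 to 20700285), KERA, LUM (20785561 to 20795162) and DCN (20825973 to 20862672) follow each other with no other annotated gene between them, and LUM and DCN lie 30810 bases apart. Neighbours on this stretch thus included LUM and DCN, each the nearest gene to the other by pattern, and EPYC, which had at most 2 reads. On chromosome 8, OGN (83789289 to 83805337), OMD (83814405 to 83822695), ASPN (83837251 to 83862639) and ECM2 are adjacent. OGN and ASPN were higher in MLC under IL-1β, while ECM2, a leucine-rich repeat matrix protein, was lower there, at 1493 ± 48.3 normalized counts in MLC and 2893 ± 366 in SLC (SD, n = 3). All 4 of these genes lie inside the span of CENPP, a centromere gene, and the strand setting of the counting is not stated, so reads of the overlapping genes may be assigned uncertainly. CENPP had 31 to 118 reads per library and was higher on average in MLC (111 ± 14.9 normalized counts) than in SLC (44.3 ± 12.3) with IL-1β. These reads are few beside those of OGN and ASPN and of the same order as those of OMD.

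On chromosome 16, FMOD (509293 to 519484), PRELP (628887 to 642843) and OPTC are adjacent, and their layer differences were unlike, with 0.43 for FMOD and 0.10 for PRELP under IL-1β and at most 3 reads of OPTC in any library. CHAD (chromosome 19, 35889794 to 35896012) lies inside the span of ACSF2, which had 416 to 1607 reads per library, so the few CHAD reads are uncertain for the same reason. BGN is on a sequence without a chromosome name in this annotation.

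LOXL2 treatment was compared within each layer, by the labels. In SLC, 0 of the 9 tested members passed the adjusted threshold, and the background was 0% of 14103 genes by edgeR's test, with 43.3% at an unadjusted p under 0.05. BGN, PRELP, OMD and LUM did not overlap between the treatments, which was so for 49% of all tested genes. BGN and PRELP had an unadjusted p under 0.05. In MLC, 1 of 9 members passed, OMD, which was lower, against 21.6% of 13664 genes in either direction and 11.8% in that direction, and BGN and FMOD did not overlap, against 41.4% of genes. The median absolute log2 fold change of the members was 0.18 in SLC and 0.12 in MLC, compared with 0.38 and 0.25 for all tested genes. Counting error widens fold changes at low counts. The members were not matched to other genes by count, so these medians do not show a smaller response of the family. The smooth muscle and pericyte markers summed to 1772 to 2085 CPM in SLC and 1136 to 1474 CPM in MLC in the libraries labelled IL-1β + LOXL2, against the values above with IL-1β, and their part in these results was not tested.

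BGN was the only member whose treatment groups did not overlap in either layer. Its log2 fold change in the libraries labelled IL-1β + LOXL2 was 0.36 (SE 0.13, adjusted p = 0.0871) in SLC and 0.24 (SE 0.086, adjusted p = 0.0614) in MLC. Neither passed, yet in both layers each such library was above each IL-1β library, which was so, in the higher direction, for 14.5% of 13416 genes tested in both layers. The ratio of BGN to DCN reads did not overlap between the treatments in SLC (exact permutation p = 0.1) but overlapped in MLC (exact permutation p = 0.3). With DESeq2's Wald test both passed (adjusted p = 0.0445 in SLC and 0.0375 in MLC), where 31.9% and 27.2% of genes did. Without the first SLC library labelled IL-1β + LOXL2, BGN had a fold change of 0.44 (adjusted p = 0.00531) in a fit that called 61.7% of genes.

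PRELP differed in the opposite direction to BGN in SLC, where the IL-1β libraries held 14191, 15895 and 14522 normalized counts and those labelled IL-1β + LOXL2 held 13098, 9422 and 10893. The groups did not overlap. The log2 fold change was -0.41 (SE 0.14, adjusted p = 0.0820). It passed with DESeq2's Wald test (adjusted p = 0.0448), where 31.9% of genes did. It also passed without the first library labelled IL-1β + LOXL2 (-0.55, adjusted p = 0.000889), in a fit that called 61.7% of genes. In MLC the values overlapped, at 17272, 13542 and 16567 with IL-1β and 15726, 13953 and 13556 with LOXL2, and the fold change was -0.14 (SE 0.11, adjusted p = 0.359).

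OMD had raw read counts of 26, 39 and 33 in the SLC IL-1β libraries and 26, 1 and 15 in those labelled IL-1β + LOXL2. In MLC the counts were 67, 44 and 51 with IL-1β and 56, 15 and 24 with LOXL2. The first library labelled IL-1β + LOXL2 was the highest of its group in each layer. OMD fell in MLC by a log2 fold change of -1.02 (SE 0.34, adjusted p = 0.0495), just inside the threshold, although the normalized counts of the groups overlapped. The call held without the first MLC library labelled IL-1β + LOXL2 (-1.60, adjusted p = 0.000507, in a fit that called 48.1% of genes) and was lost on leaving out any of the other 5 MLC libraries (adjusted p from 0.0717 to 0.181) and in a fit on all 12 libraries, in which 0% of genes passed. In SLC the fold change was -1.36 (SE 0.71, adjusted p = 0.174). Without the first library labelled IL-1β + LOXL2 it was -2.24 (adjusted p = 0.00813), in a fit that called 61.7% of genes.

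With all 6 libraries of a layer in the fit, none of the remaining members passed with LOXL2. FMOD had 56963, 58255 and 55355 normalized counts in MLC with IL-1β and 62018, 62251 and 61646 with LOXL2, without overlap, but its fold change was 0.12 (SE 0.079, adjusted p = 0.267). DCN had a log2 fold change of 0.07 (SE 0.11) in SLC and 0.04 (SE 0.092) in MLC. LUM in SLC was below its IL-1β libraries in each library labelled IL-1β + LOXL2, yet the fold change was only -0.04 (SE 0.094), and with TMM-scaled counts the groups overlapped. In SLC and MLC respectively, OGN had fold changes of 0.18 (SE 0.15) and 0.06 (SE 0.11), and ASPN of 0.10 (SE 0.26) and -0.11 (SE 0.11). CHAD had -0.18 (SE 0.36) and -0.19 (SE 0.35), too imprecise to exclude a moderate difference. None of these passed. Without the first MLC library labelled IL-1β + LOXL2, ASPN in MLC was at -0.26 (adjusted p = 0.00558), in a fit that called 48.1% of genes.

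**Figure D3:**
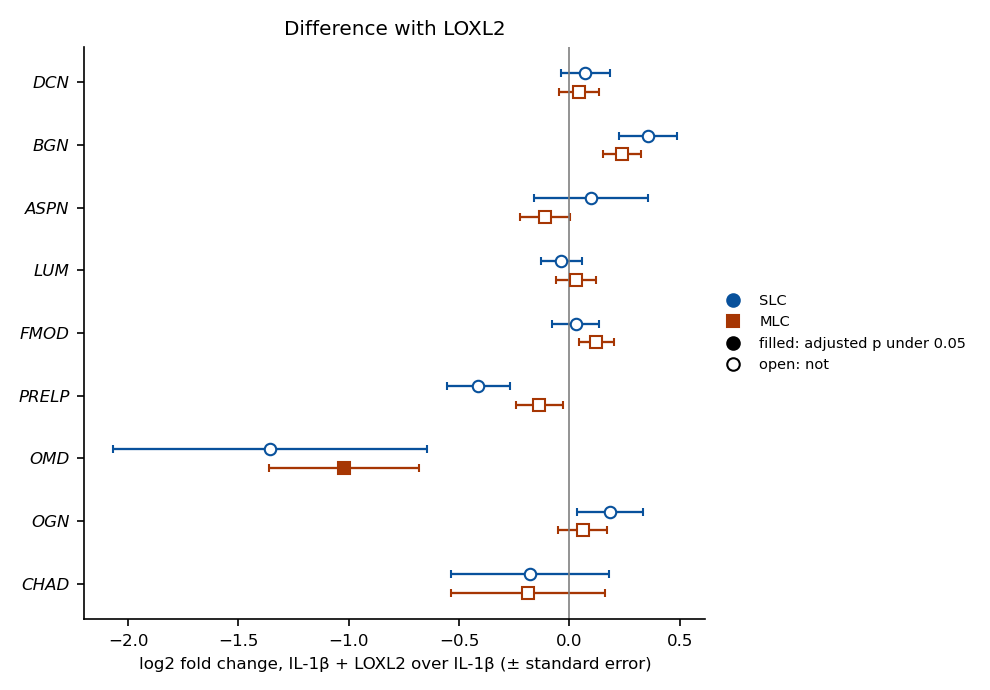
Log2 fold change of libraries labelled IL-1β + LOXL2 over IL-1β (x axis, ± standard error from edgeR) for the 9 tested family genes (y axis) in SLC (circles) and MLC (squares), filled where the adjusted p is under 0.05. BGN lies above 0 and PRELP and OMD below 0 in both layers, and only OMD in MLC passed.

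No member passed in the test of whether its LOXL2 difference was unequal between the layers. This test of the interaction gave adjusted p-values of at least 0.959 for the 9 members, and 0% of 14534 genes passed by edgeR, with 2.26% at an unadjusted p under 0.05. The interaction was 0.27 (SE 0.18) for PRELP and -0.13 (SE 0.15) for BGN on the log2 scale. In an average of the treatment difference over both layers, chosen after the data were seen, BGN was higher by a log2 fold change of 0.31 (SE 0.074, adjusted p = 0.00706). In the same average PRELP was lower (-0.27, SE 0.091, adjusted p = 0.0287), as was OMD (-1.19, SE 0.41, adjusted p = 0.0297). This comparison called 50.5% of 14534 genes, so a call in 3 of 9 members is not above the background. On leaving out 1 library, BGN passed in all 12 fits (adjusted p up to 0.0220), and PRELP and OMD each in 5 (up to 0.0744 and 0.0705).

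In both layers the first library labelled IL-1β + LOXL2 lay at an extreme of its group for most members. It was the highest of its group in SLC and in MLC for 6 of the 9 tested members (ASPN, CHAD, LUM, OGN, OMD and PRELP), and the lowest in both for BGN. Over all tested genes it was the highest in both layers for 32.6% and the lowest in both for 31.2%. Relative to the mean of the SLC IL-1β libraries, on the log2 scale, the ASPN values of the 3 SLC libraries labelled IL-1β + LOXL2 were at 0.61, -0.43 and -0.11, and relative to the MLC mean the 3 MLC libraries were at 0.16, -0.28 and -0.26. Leaving out the first library labelled IL-1β + LOXL2 of both layers was chosen after these values were seen. The ASPN values that remain all lay below 0, so the adjusted p-values of that fit are descriptive only. Without these libraries, the averaged ASPN difference was -0.25 (SE 0.072, adjusted p = 0.00630) in place of a value near 0 (SE 0.19), in a fit that called 66% of genes. BGN was then at 0.38 (adjusted p = 3.91e-05), PRELP at -0.36 (adjusted p = 0.000463), and OMD at -1.91 (adjusted p = 0.000193).

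**Figure D4:**
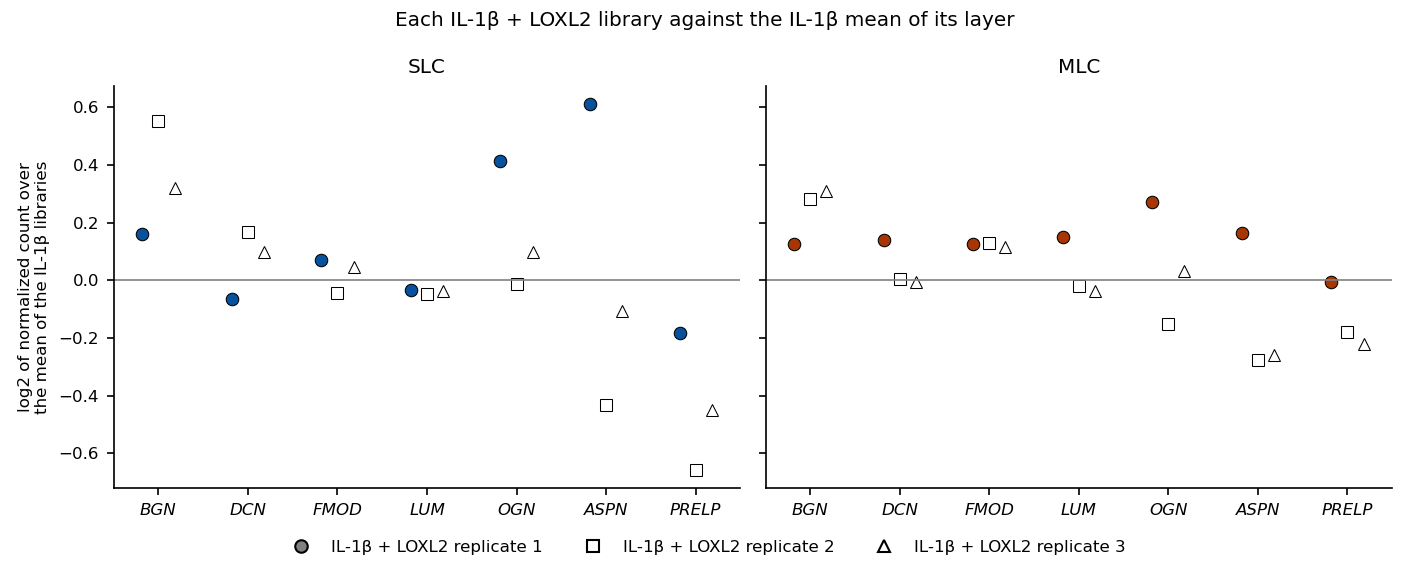
Log2 of the normalized count in each library labelled IL-1β + LOXL2 over the mean of the 3 IL-1β libraries of its layer (y axis) for 7 family genes (x axis), in SLC and MLC, with the first replicate filled. ASPN lies at 0.61 and 0.16 in the first replicate and below 0 in the others. BGN lies above 0 and PRELP below 0 in all 6 libraries.

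Fold changes with LOXL2 also ran with the genomic span of genes, with a rank correlation of -0.49 over 14073 genes in SLC and -0.49 over 13637 in MLC, which are not independent replicates. BGN (13908 bases) and PRELP (13957 bases) both have a span shorter than the median of 20774 bases in SLC. The part of span in the differences of the members was not tested. With the trend on span removed, BGN was at 0.26 in SLC and 0.17 in MLC, PRELP at -0.49 and -0.20, and OMD at -1.53 and -1.15. FMOD in SLC and LUM in MLC, both near 0, changed sign.

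Other leucine-rich repeat proteoglycans differed between the layers in both directions. Of the 8 genes listed, 7 were in the tables and 4 were tested in the layer comparisons. Under IL-1β, TSKU, a secreted signaling regulator, was higher in MLC (0.38, SE 0.12, adjusted p = 0.0353), and podocan (PODN), ECM2 and CHADL were lower. PODN had 1310, 1106 and 1041 normalized counts in SLC and 147, 217 and 186 in MLC, a 6.21-fold lower level in MLC (log2 fold change -2.63, SE 0.18, adjusted p = 7.99e-07). With LOXL2 it was 6.71-fold lower, and ECM2 was 2.07-fold lower (adjusted p = 0.000360). Keratocan (KERA) and opticin (OPTC), which are known from cornea and eye, had at most 8 and 3 reads in any library. With LOXL2 treatment, 0 of the 4 genes of this list tested in SLC passed, where 0% of all tested genes did. In MLC 0 of 3 passed, where 21.6% of all tested genes did.

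Among the collagens and fibril partners on which these proteoglycans sit, all 16 listed genes were tested under IL-1β between the layers, 8 rising and 3 falling in MLC (14.2% and 11.4% of all tested genes), with a median log2 fold change of 0.41, also with COL2A1 set at its bound. COL2A1, the main cartilage collagen, was at least 113-fold higher in MLC, with the SLC libraries set at the floor of 3 counts per library. COL11A2 was 4.10-fold higher (adjusted p = 0.000415). COL14A1, a fibril-associated collagen that binds decorin, was 1.56-fold lower in MLC (adjusted p = 0.00106), and tenascin X (TNXB) was 4.25-fold lower (adjusted p = 0.00444). With LOXL2 treatment in MLC, 1 of 15 tested genes rose, COMP (0.37, adjusted p = 0.0283), and 3 fell, among them COL12A1 (-0.61, adjusted p = 0.0205) and COL6A3 (-0.48, adjusted p = 0.0267), near the 21.6% of all tested genes that passed there. In SLC 0 of 15 passed, where 0% of all tested genes did, and 5 were higher and 10 lower. COL12A1 was at -1.08 and COL14A1 at -0.45 there, with the same adjusted p of 0.0706.

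The enzymes that build chondroitin, dermatan and keratan sulfate chains were higher in MLC in 11 of 25 tested genes under IL-1β, where 14.2% of all genes were, and lower in 1, CSGALNACT2 (-0.60, adjusted p = 0.0152). CHST7 and CHST13, sulfotransferases for chondroitin, were 4.78-fold and 3.38-fold higher, from low levels. With LOXL2 in MLC, 2 of 24 tested rose, B3GAT3 (0.44, adjusted p = 0.0291) and CHST12 (0.34, adjusted p = 0.0424), and 6 fell, including XYLT1, which starts the chain (-0.70, adjusted p = 0.0190), and DSEL, which turns chondroitin into dermatan sulfate (-0.51, adjusted p = 0.0241). Over all tested genes 21.6% passed in that comparison, and 11.8% fell. The MLC calls of these enzymes were lost in the same fits as those of the collagens. In SLC 0 of 23 passed, where 0% of all tested genes did, with XYLT1 at -1.11 (adjusted p = 0.0706). DCN and BGN, core proteins that carry such chains, did not pass with LOXL2 in either layer.

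Proteases that can cleave these proteoglycans were higher in MLC under IL-1β in 6 of 11 tested genes and lower in 0, against 14.2% and 11.4% of all genes. MMP3 had 125 ± 24.1 normalized counts in SLC and 4514 ± 1305 in MLC (SD, n = 3), a 36.4-fold difference (adjusted p = 1.11e-06), and MMP12 had 0.618 ± 1.07 and 28.3 ± 5.20. With LOXL2 in MLC, 0 of 11 rose and 3 fell, among them the aggrecanase ADAMTS5 (-0.93, adjusted p = 0.0190) and ADAMTS9 (-0.56, adjusted p = 0.0194), where 21.6% of all genes passed and 11.8% fell. These protease calls in MLC were lost in the fits in which 0 genes passed. ADAMTS5 was at -1.46 (adjusted p = 0.0706) in SLC, where 0 of 10 passed and 0% of all tested genes did.

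Among 14 tested receptors and ligands of soluble proteoglycans, 2 rose and 2 fell in MLC under IL-1β, near the 25.6% of all genes that passed there. BMP4 was 1.83-fold higher (adjusted p = 0.000548) and TGFB1, a ligand that decorin and biglycan bind, was 1.48-fold higher (adjusted p = 0.00286), whereas EGFR, a receptor for decorin, was 2.82-fold lower (adjusted p = 1.73e-05). With LOXL2 in MLC, P2RX4 rose (0.33, adjusted p = 0.0431) and 3 fell, among them P2RX7 (-1.47, adjusted p = 0.0241), a partner of biglycan signaling with few reads, and the decorin uptake receptor LRP1 (-0.61, adjusted p = 0.0194), against 21.6% of all genes that passed. The receptor and ligand calls with LOXL2 in MLC were likewise lost in the fits in which 0 genes passed. In SLC 0 of 14 passed, where 0% of all tested genes did, and LRP1 was at -0.94 (adjusted p = 0.0706).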

How the data were processed

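Paired-end RNA-seq reads of poly-T selected RNA from goat cells were mapped to ARS1.2 and counted per gene. The submitters' processing notes name HISAT2 and featureCounts, and settings for strand and multiple mapping are not given in the sources used here. The authors deposited raw counts, without normalization, in 1 table per layer with the same 28910 rows, 28884 of which matched RefSeq symbols.

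The quasi-likelihood test of edgeR 4.0.16 (R 4.3.3) was run after TMM normalization on genes kept by filterByExpr (minimum count 10, minimum total 15), with Benjamini-Hochberg adjustment over all tested genes and a threshold of 0.05, in the 6 libraries of a layer for LOXL2 and in all 12 for the layers and the interaction. Standard errors were obtained as the absolute log2 fold change over the square root of F. Normalized counts use size factors of DESeq2 1.42.0 over 12 libraries. Single values were compared with two-sided exact permutation tests, and floors cover counting error only. Only the edgeR test was tried on simulated counts, with the same spread set for all genes and libraries. Uneven libraries, such as those of SLC labelled IL-1β + LOXL2, were not simulated.

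All family members are described. At most 4 genes of each other list are named, those with the largest changes past the threshold in each direction or else the smallest p, and ECM2 under IL-1β was added after its values were seen. The members and lists were chosen with earlier results of these data known. Replicate numbers are not said to pair libraries. Deviations of same-numbered IL-1β + LOXL2 libraries of the 2 layers correlated at 0.605, 0.206 and 0.168. The second SLC library correlated more with the third MLC library (0.450) than with the second. For the third SLC and the second MLC library the value was 0.096. Only the first libraries matched clearly by number, so the numbers do not establish pairs. That comparison is treated as paired only in an alternative. In other pairs of groups, same-numbered libraries correlated at -0.227 to 0.124. No libraries were duplicates (the lowest chi-square over its degrees of freedom was 2.23). Alternatives were DESeq2's size factors and Wald test, other filters, the replicate block, removal of the trend on gene span (lowess, span 0.3), other sets of libraries in a fit and leaving out each library. Osteoblast markers summed to 22.9 to 39.7 CPM, and superficial fibrous layer markers to 44024 to 54873 CPM.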

Additional observations from a re-analysis of the deposited data

How the results depend on the processing

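The layer differences of DCN, LUM, FMOD and OGN kept their direction and passed in every alternative run. Results on LOXL2 treatment depended on the test and on single libraries, and for the changes listed here the cause was not tested. With DESeq2's Wald test 4107 genes (31.9%) and 2 members passed in SLC, and 3270 genes (27.2%) and 2 members in MLC. In a fit on all 12 libraries 5965 genes and 2 members passed in SLC, and 0 genes and 0 members in MLC (3728 at an unadjusted p under 0.05). Fits on the 6 libraries of 1 treatment called 6548 genes between the layers under IL-1β, with BGN and OMD gained, and 2268 with LOXL2, with BGN and PRELP lost. On leaving out each library, the number of genes ranged from 0 to 8849 in SLC (8849 without the first library labelled IL-1β + LOXL2, 0 in the other 5 fits), from 0 to 6653 in MLC (6653 without its first), from 2600 to 5051 and from 3150 to 6812 between the layers, from 0 to 1 for the interaction and from 5541 to 9223 for the average over layers (9699 without the first library labelled IL-1β + LOXL2 of both layers). The number of members ranged from 0 to 3 in SLC and in MLC, from 4 to 7 and from 4 to 8 between the layers, from 0 to 0 for the interaction and from 1 to 3 for the average (4 without both first libraries). The replicate block changed 1 call, that of ASPN between the layers with LOXL2 (0.58). With the block in the 6 libraries of that treatment, ASPN (0.62) and OMD (1.61) passed and BGN (-0.38, adjusted p = 0.0559) did not. The share of all genes that passed in that fit is not given here. Removing the trend on gene span reversed FMOD in SLC (-0.13), LUM in MLC (-0.086), CHAD between the layers with LOXL2 (0.011) and in the interaction (0.071), and FMOD (-0.048), LUM (-0.14) and ASPN (0.025) in the average. BGN under IL-1β passed with that trend removed (-0.33, adjusted p = 0.00855), and PRELP with LOXL2 did not (0.33, adjusted p = 0.0810), nor did it without a filter or with the stricter one (adjusted p = 0.0509 and 0.0506). CHAD under IL-1β reversed in the fit on 6 libraries (0.0023), and the averaged LUM reversed with DESeq2's size factors (-0.0036), its Wald test (-0.0036) and the stricter filter (-0.0012). None of these reversed values passed. On leaving out 1 library, values of both signs were obtained for CHAD (-0.47 to 0.15 with LOXL2 in SLC, -0.59 to 0.13 in MLC, -0.18 to 0.33 between the layers under IL-1β, -0.41 to 0.29 with LOXL2 and in the interaction), ASPN (-0.26 to 0.30 in SLC, -0.42 to 0.13 in the interaction, -0.17 to 0.10 in the average), LUM (-0.026 to 0.10 in MLC, -0.0036 to 0.12 in the interaction, -0.023 to 0.042 in the average), OGN (-0.050 to 0.15 in MLC), DCN (-0.11 to 0.034 in the interaction) and OMD (-0.28 to 1.2 in the interaction). With TMM-scaled counts the level of LUM in SLC with LOXL2 was 14826 and that of FMOD in MLC with LOXL2 was 62404, a shift above 1 SD. Ordering the members by level per length was not run, since no transcript or coding length was used here. Depth limits OMD, CHAD and EPYC, with at most 67 reads.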
